A study of Mus musculus with 9 samples.

Results

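Rab GTPases are small membrane switches that give each compartment of the cell its identity and steer vesicle traffic between compartments. An exchange factor loads a Rab with GTP, the loaded Rab recruits effectors such as tethers and motors to its membrane, a GTPase-activating protein ends the signal, and a GDI chaperone extracts the spent Rab and carries it back to the cytosol. In dendritic cells and macrophages, Rabs of this family sort engulfed material through phagosomes, endosomes and lysosomes, store and recycle MHC class I molecules, and release cytokines and vesicles. The genes described here are those named Rab plus a number in the deposited table, with at least 10 read counts in at least 3 of the 9 libraries. That rule used the measured counts over all libraries, so the level of a gene that met it is no finding. Of 21959 genes in the table, 69 have such a name. Among these 69, 10 encode interactors rather than GTPases (5 Rab11 family interacting proteins, the other regulators of Rab3 and the Rab5 interacting factor Rab5if) and were left out. Of the 59 Rab GTPase genes that remain, 43 reached the minimum, and 40 of these reached it in all 9 libraries.

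The RNA came from DC2.4, an immortalised mouse dendritic cell line, and was sequenced as 9 libraries in the groups OMVSSDC, PBSDC and ZJDC, with 3 libraries each. The stated aim was to see which immune genes change when these cells meet engineered extracellular vesicles called EMV@SS. The labels tell neither what OMVSS, PBS or ZJ stand for, nor which group met those vesicles, nor dose or time. PBSDC served as the reference here, and all 3 groups share the cell line, which is 1 line grown in culture. Whether the 3 libraries of each group are separate cultures is not said in the labels, so p-values measure only the spread between these libraries, which may be technical.

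Library totals ran from 12784931 to 18388959 counts, so that a count of 0 allows up to 0.163 to 0.235 CPM (the depth-scaled count, here with TMM factors); such limits cover counting error only. OMVSSDC replicates 1 and 2 stood apart from OMVSSDC replicate 3, which lay near ZJDC. Values for OMVSSDC are therefore also given from the 7 libraries that leave out replicates 1 and 2, a fit in which replicate 3 stands alone and is assumed to vary like the other groups. That fit holds no spread within OMVSSDC, so passing or not passing in it does not outweigh the fit of all 9 libraries. Of the myeloid markers, Ptprc, Spi1, Csf1r and Cd68 were abundant, whereas Flt3, Clec9a, Xcr1, Ccr7 and H2-Ab1, which define subsets or the mature state of dendritic cells, were at or near 0, and Itgax and Zbtb46 were low (1.68 to 4.80 and 2.85 to 9.33 CPM). The 20 dendritic and myeloid markers summed to 5738 to 6163 CPM in OMVSSDC, 5669 to 5850.2 in PBSDC and 5836 to 5919 in ZJDC. Within these sums single markers moved in opposite directions: Csf1r had 1095 to 1173 CPM in PBSDC and 525 to 591 in the other groups, Lyz2 833 to 861 and 268 to 320.3, Itgam 328 to 344 and 95.7 to 174, and Spi1 416 to 427 and 252 to 309.7, whereas Cd74 had 401 to 422 and 722 to 757, Cd86 134 to 145 and 299 to 332, and Adgre1 272 to 298 and 441 to 639. Markers of other cells were low: 6 epithelial markers summed to at most 0.511 CPM, and 8 lymphoid markers to 13.0 to 16.5 CPM in OMVSSDC, 5.40 to 7.54 in PBSDC and 11.9 to 13.6 in ZJDC, nearly all of it Lck, with 4 of the 8 at 0 in every library. The 8 fibroblast or endothelial markers summed to 10.3 to 31.1, 27.4 to 32.1 and 16.1 to 21.7 CPM in OMVSSDC, PBSDC and ZJDC. The 9 granulocyte or erythroid markers summed to 0.391 to 10.03 in OMVSSDC, where replicate 1 was the highest, 0.590 to 1.31 in PBSDC and 0.376 to 1.10 in ZJDC. The 20 heart and brain markers reached a summed level of 18.2 and 17.8 CPM in replicates 1 and 2 of OMVSSDC, 37.1 in replicate 3, 52.4 to 58.3 in PBSDC and 34.7 to 43.3 in ZJDC. Several of these markers thus moved with the groups or with the OMVSSDC libraries, and their part in the results was not tested. In bulk RNA, fewer cells that use a gene and less of its RNA per cell cannot be told apart.

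The Rabs measured served every step from uptake to secretion, at very unequal levels. On the per-length scale of the deposited FPKM, averaged over the 9 libraries, Rab7, the organiser of late endosomes and lysosomes, had the highest level at 144. It was followed by Rab5c of the early endosome (94.1), Rab8b of the exocytic route (83.4), Rab1a of transport from the endoplasmic reticulum to the Golgi (79.3), and Rab10, which delivers cargo such as Toll-like receptor 4 to the cell surface (70.6). In all, 6 members had a mean of 50 FPKM or more, 18 of 10 to 50, 15 of 1 to 10 and 4 below 1 (Rab2b, Rab30, Rab43 and Rab4b). All 59 Rab GTPase genes, those under the minimum included, together took 0.352%, 0.344% and 0.346% of the counts in PBSDC replicates 1 to 3. They took 0.354%, 0.360% and 0.374% in OMVSSDC, and 0.365%, 0.363% and 0.364% in ZJDC. This share was lowest in the PBSDC libraries and did not overlap between PBSDC and the other groups.

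**Figure D1:**
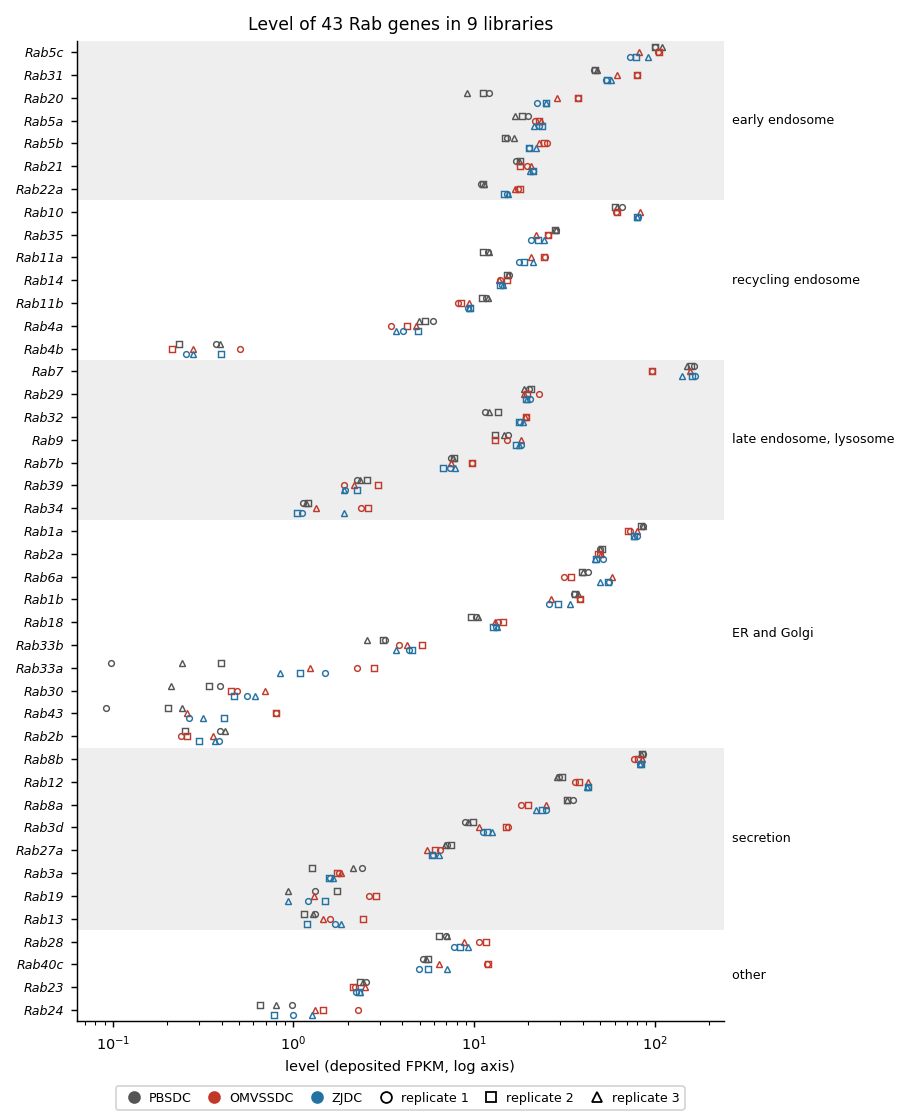
Level of each of the 43 Rab genes in each of the 9 libraries, as deposited FPKM on a log axis, grouped by the compartment each Rab is known for; colour marks the group and shape the replicate. Rab7, Rab5c, Rab8b, Rab1a and Rab10 lie at the right, and Rab33a shows its 3 PBSDC libraries left of all others.

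The other 16 Rab GTPase genes were under the minimum: Rab15, Rab17, Rab25, Rab26, Rab27b, Rab36, Rab37, Rab38, Rab39b, Rab3b, Rab3c, Rab40b, Rab42, Rab44, Rab6b and Rab9b, of which Rab17, Rab36 and Rab9b had 0 counts in every library. Just outside stood Rab15 (1 to 13 counts) and Rab42 (0 to 12), each with 10 or more counts in 2 libraries. Just inside stood Rab4b with 5 libraries at the minimum (7 to 13 counts), Rab33a with 6 and Rab43 with 8. Rab33a reached the minimum only through OMVSSDC and ZJDC, so it had to differ from PBSDC, and its values below are a description; it is counted among the members called.

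Between OMVSSDC and PBSDC, 26 of 43 members passed the test (edgeR quasi-likelihood, adjusted p under 0.05 over 11568 genes), 17 higher and 9 lower in OMVSSDC. Over all genes tested 63.6% passed (33.4% higher and 30.2% lower), so the share of members called, 60.5%, was near the background. Only Rab20, Rab33a and Rab43 were more than 2-fold higher among the members called, against 12.9% of all genes, and none was more than 2-fold lower, against 6.87%. Between ZJDC and PBSDC, 20 of 43 members passed (46.5%), 11 higher and 9 lower. The background there was 54.7% of genes (27.6% higher and 27.1% lower), and Rab20 and Rab33a were more than 2-fold higher, against 9.18% of all genes, and none more than 2-fold lower, against 3.89%. Groups did not overlap for 30 members in OMVSSDC against PBSDC (69.8%; 65.7% of all genes) and for 32 in ZJDC against PBSDC (74.4%; 72.2% of all genes). The median log2 fold change of the members was 0.01 and 0.17 in these comparisons, beside 0.05 and 0.01 over all genes. Both comparisons use the same PBSDC libraries, so their values are set side by side below and are not independent.

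**Figure D2:**
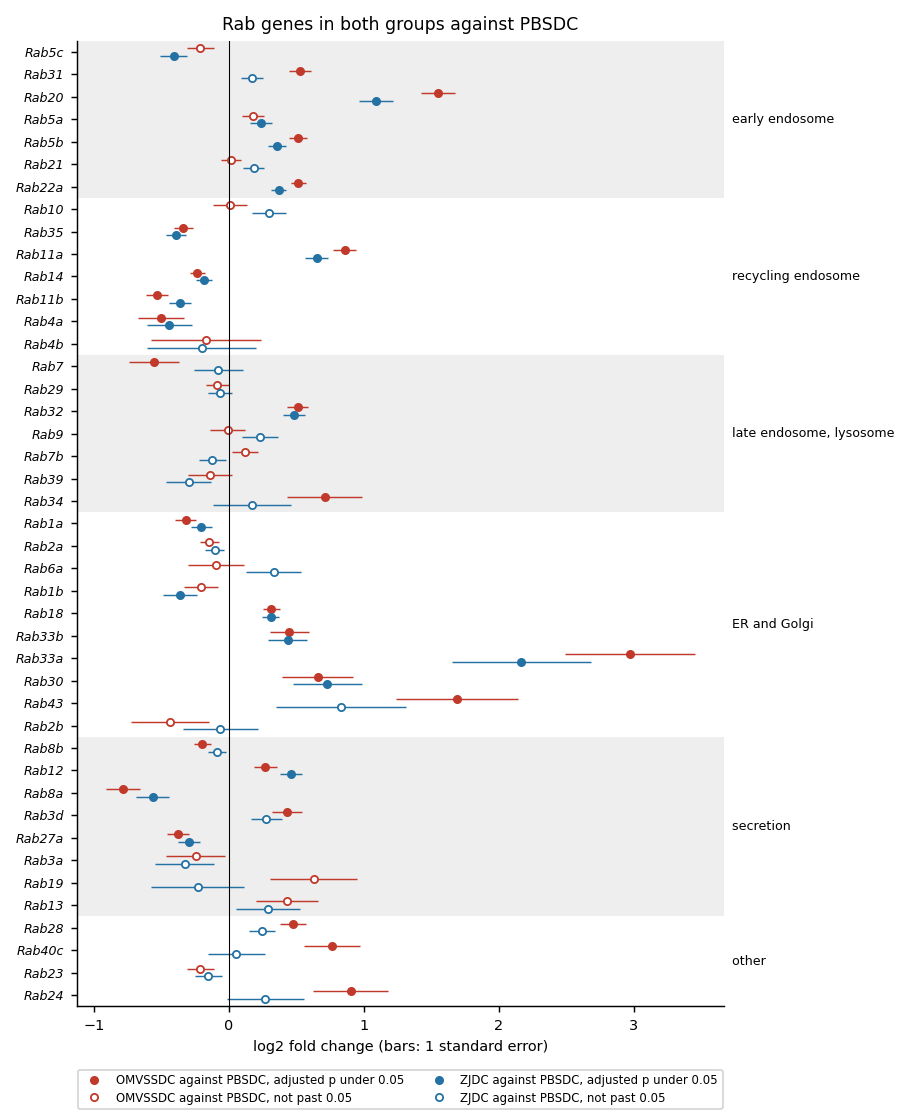
Log2 fold change of each Rab gene in OMVSSDC (red) and ZJDC (blue) against the same PBSDC libraries, with bars of 1 standard error; filled points passed an edgeR adjusted p of 0.05. Most values lie within 1 log2 unit of 0; Rab33a, Rab43 and Rab20 lie beyond it in OMVSSDC, and Rab33a and Rab20 in ZJDC.

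The roles by which the members are ordered were set with the values known, so their counts are a description and are not tested. Of 7 Rabs of the early endosome and of uptake, 4 were higher and 0 lower in OMVSSDC (beside 33.4% and 30.2% of all genes), and 4 were higher and 1 lower in ZJDC (27.6% and 27.1%). Rab20, which acts in the maturation of phagosomes and is known to respond to interferon gamma in macrophages, had 17.6, 16.4 and 13.3 CPM in PBSDC replicates 1 to 3, 49.6, 49.1 and 39.7 in OMVSSDC and 31.6, 35.0 and 34.4 in ZJDC. All 6 libraries of OMVSSDC and ZJDC exceeded all PBSDC libraries, and OMVSSDC also stood above ZJDC without overlap. Its log2 fold change was 1.55 in OMVSSDC (SE 0.124, adjusted p = 3.01e-06) and 1.09 in ZJDC (SE 0.125, adjusted p = 4.85e-05), and 1.32 with OMVSSDC replicate 3 alone.

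The window of 250 bases before the start of Rab20 is shown because it is the most changed member of the uptake group and holds 1 of the motifs searched, the E-box CACGTG that factors such as TFEB, USF and MYC can recognise, in capitals from 46 to 41 bases before the start. It lies at chr8:11478641-11478890 of GRCm38.p6, minus strand, in RefSeq.
Rab20: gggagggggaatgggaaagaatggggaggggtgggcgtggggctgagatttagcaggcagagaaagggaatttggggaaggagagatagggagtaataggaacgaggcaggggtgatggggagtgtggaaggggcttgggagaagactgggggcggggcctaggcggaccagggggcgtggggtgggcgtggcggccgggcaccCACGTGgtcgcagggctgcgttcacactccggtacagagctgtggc
Promoters from RefSeq were matched by symbol for 38 of the 43 members, which have 47 windows of 250 bases. CACGTG, which reads the same on both strands, was in 10.6% of these windows (those of Rab20, Rab21, Rab23, Rab27a and Rab5a) and in 6.02% of 32851 windows of all genes. The NF-kB consensus, searched on both strands, was in 4.26% (Rab11a and Rab28) against 7.25%, the letters of the interferon response element (GAAA, any 2 bases, GAAA) in 2.13% (Rab19) against 2.98%, and the AP-1 letters TGANTCA in 2.13% (Rab34) against 6.75%. The motifs do not overlap one another in the windows printed here. Member windows were richer in G and C (median 62%, against 52.4%) and in CpG (median 18, against 6), which bears on how often any motif occurs. A match describes letters only.

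Rab22a, which serves recycling of MHC class I and antigen cross-presentation, had 83.1, 84.3 and 85.7 CPM in PBSDC, 118, 122 and 121 in OMVSSDC and 111, 106 and 110.3 in ZJDC, with 3 groups that did not overlap. It rose by 0.51 in OMVSSDC (SE 0.0549, adjusted p = 2.13e-05) and by 0.37 in ZJDC (SE 0.0549, adjusted p = 0.000279). Rab31, which links the trans-Golgi network to endosomes, had 185, 186 and 191 CPM in PBSDC, 287, 288 and 234 in OMVSSDC and 209, 207 and 217 in ZJDC. No groups overlapped; Rab31 rose by 0.53 in OMVSSDC (adjusted p = 0.000278; 0.32 with replicate 3 alone), and its 0.17 in ZJDC did not pass (adjusted p = 0.0986). Of the 3 Rab5 genes, which drive fusion of early endosomes, Rab5b had 67.0, 65.2 and 73.0 CPM in PBSDC, 100.1, 95.7 and 96.2 in OMVSSDC and 85.7, 84.9 and 91.4 in ZJDC, again without overlap. It rose by 0.51 (adjusted p = 7.99e-05) and 0.35 (adjusted p = 0.00122). Rab5c, the Rab5 gene with the highest level, went the other way, with 231, 229 and 251 CPM in PBSDC, 217, 218 and 178 in OMVSSDC and 163, 173 and 199.6 in ZJDC. Each of the 6 libraries lay below PBSDC. Rab5c fell by 0.41 in ZJDC (SE 0.0997, adjusted p = 0.00578). Its -0.21 in OMVSSDC did not pass (adjusted p = 0.0833) and was -0.41 with replicate 3 alone. Rab5a rose by 0.24 in ZJDC (adjusted p = 0.0323), a call lost without PBSDC replicates 2 or 3 or ZJDC replicates 1 or 2 (adjusted p = 0.0891 to 0.135). Its 0.18 in OMVSSDC did not pass (adjusted p = 0.0850) and was 0.27 with replicate 3 alone. Rab21, a regulator of integrin uptake, had 0.01 and 0.18 and passed in neither comparison.

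Of 7 recycling Rabs, 1 was higher and 4 were lower in OMVSSDC (beside 33.4% and 30.2% of all genes), and likewise 1 was higher and 4 lower in ZJDC (27.6% and 27.1%). Rab11a, the main Rab of slow recycling, which keeps stores of MHC class I for phagosomes in dendritic cells, had 37.6, 35.0 and 37.9 CPM in PBSDC, 69.8, 68.8 and 61.4 in OMVSSDC and 53.5, 56.9 and 62.7 in ZJDC. It rose by 0.86 in OMVSSDC (SE 0.0842, adjusted p = 1.17e-05; 0.73 with replicate 3 alone) and by 0.65 in ZJDC (SE 0.0843, adjusted p = 0.000114). Its close relative Rab11b had 74.5, 70.6 and 76.4 CPM in PBSDC, 47.0, 48.5 and 57.2 in OMVSSDC and 57.3, 58.6 and 56.6 in ZJDC. So PBSDC was the lowest group for Rab11a and the highest for Rab11b, with no overlap either time. Rab11b fell by 0.54 in OMVSSDC (SE 0.0820, adjusted p = 0.000251) and by 0.36 in ZJDC (SE 0.0815, adjusted p = 0.00370).

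The upstream windows of this pair are shown because the 2 genes encode closely related proteins and moved in opposite directions. Both are on the minus strand in RefSeq GRCm38.p6, Rab11a at chr9:64737757-64738006 and Rab11b at chr17:33760487-33760736. Capitals in Rab11a mark the 10 bases that match the NF-kB consensus, from 21 to 12 bases before the start; Rab11b held none of the 4 motifs in this window.
Rab11a: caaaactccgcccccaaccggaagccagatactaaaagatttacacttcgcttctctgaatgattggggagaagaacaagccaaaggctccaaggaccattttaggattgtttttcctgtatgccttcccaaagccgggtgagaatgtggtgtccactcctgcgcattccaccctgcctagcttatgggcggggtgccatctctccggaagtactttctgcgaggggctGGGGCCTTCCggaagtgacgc
Rab11b: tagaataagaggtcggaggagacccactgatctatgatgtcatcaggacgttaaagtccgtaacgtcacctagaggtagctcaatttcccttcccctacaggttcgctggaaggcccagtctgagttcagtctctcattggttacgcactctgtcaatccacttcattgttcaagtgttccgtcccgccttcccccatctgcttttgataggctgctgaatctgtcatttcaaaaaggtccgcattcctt
Their G and C content was 53.6% and 48.4%, below the median of the member windows.

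On the FPKM scale Rab11a and Rab11b were nearly equal in PBSDC, with ratios of 1.03, 1.01 and 1.02 in replicates 1 to 3. The ratio of Rab11a to Rab11b was 3.04, 2.91 and 2.20 in OMVSSDC and 1.91, 1.99 and 2.27 in ZJDC. Every library outside PBSDC thus held at least 1.91 times as much Rab11a as Rab11b per length. Other ratios within families that did not overlap between PBSDC and the other groups were Rab5b to Rab5c, at 0.149 to 0.152 in PBSDC, 0.230 to 0.281 in OMVSSDC and 0.239 to 0.274 in ZJDC, and Rab8a to Rab8b, at 0.382 to 0.409, 0.236 to 0.295 and 0.267 to 0.301. The ratio of Rab5a to Rab5c also separated PBSDC from both other groups. So did that of Rab33a to Rab33b, but Rab33a met the minimum only through OMVSSDC and ZJDC, which fixed its low side in PBSDC. Ratios of Rab1a to Rab1b, Rab2a to Rab2b, Rab3d to Rab3a, Rab4a to Rab4b, Rab5a to Rab5b and Rab7 to Rab7b overlapped. These 11 pairs were chosen with the values known, so no test is given for them.

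**Figure D3:**
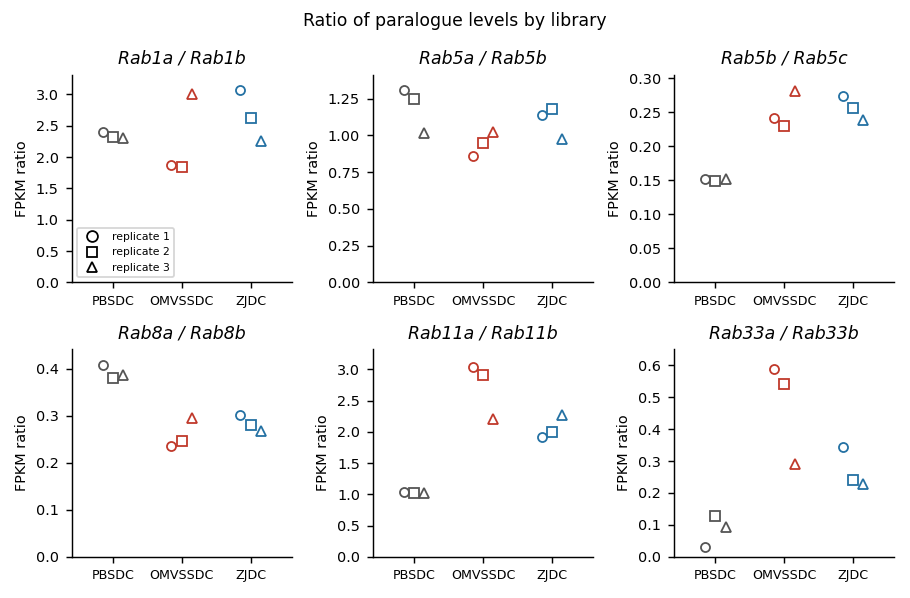
Ratio of the deposited FPKM of 6 pairs of related Rab genes in each library; shape marks the replicate and colour the group. Rab11a to Rab11b lies at 1.01 to 1.03 in PBSDC and at 1.91 to 3.04 in the other libraries, and Rab1a to Rab1b overlaps between groups.

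Among the other recycling Rabs, Rab35, which returns receptors from endosomes to the surface, had 83.8, 82.8 and 83.4 CPM in PBSDC, 68.2, 67.8 and 61.8 in OMVSSDC and 58.7, 63.7 and 67.9 in ZJDC. All 6 libraries lay below PBSDC, and Rab35 fell by 0.34 in OMVSSDC (adjusted p = 0.00220) and by 0.39 in ZJDC (adjusted p = 0.00108). Rab14, which moves cargo between Golgi and endosomes, fell by 0.24 (adjusted p = 0.00507) and 0.18 (adjusted p = 0.0207), and the ZJDC call was lost without any of PBSDC replicates 1 or 3 or ZJDC replicates 2 or 3 (adjusted p = 0.0530 to 0.0809). Rab4a, the Rab of rapid recycling, fell by 0.51 (adjusted p = 0.0231) and 0.44 (adjusted p = 0.0444). Its OMVSSDC call was lost without OMVSSDC replicates 1 or 2 or PBSDC replicate 1 (adjusted p = 0.0568 to 0.0860) and with replicate 3 alone (-0.26, adjusted p = 0.259), and its ZJDC call without OMVSSDC replicate 2, any PBSDC library, or ZJDC replicates 1 or 3 (0.0565 to 0.153). Rab4b, with 7 to 13 counts in each library, passed in neither comparison.

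Rab10 had 245, 221 and 226 CPM in PBSDC, 201, 205 and 289 in OMVSSDC and 289, 281 and 278 in ZJDC. OMVSSDC replicates 1 and 2 lay below every other library while replicate 3 was as high as ZJDC. The log2 fold change was 0.01 in OMVSSDC (SE 0.124, adjusted p = 0.960). The sign turned with the libraries: -0.18 without OMVSSDC replicate 3 (adjusted p = 0.00119) and 0.32 with replicate 3 alone. In ZJDC the log2 fold change was 0.30 (adjusted p = 0.0669).

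Of the late endosomal and lysosomal Rabs, 2 of 7 were higher and 1 lower in OMVSSDC, beside 33.4% and 30.2% of all genes. In ZJDC 1 was higher and 0 lower, beside 27.6% and 27.1% of all genes. Rab32, which serves lysosome-related organelles and restricts intracellular bacteria in macrophages, had 28.1, 33.2 and 29.7 CPM in PBSDC, 42.5, 42.6 and 44.5 in OMVSSDC and 42.6, 41.3 and 43.1 in ZJDC. OMVSSDC and ZJDC overlapped each other and stood above PBSDC. Rab32 rose by 0.51 (SE 0.0786, adjusted p = 0.000265) and 0.48 (SE 0.0786, adjusted p = 0.000503). Rab7 had 453, 432 and 411 CPM in PBSDC, 236, 238 and 407 in OMVSSDC and 440.4, 421 and 366 in ZJDC. Only OMVSSDC replicates 1 and 2 were low. Rab7 fell by 0.56 in OMVSSDC (SE 0.185, adjusted p = 0.0227), but the value was -0.09 with replicate 3 alone (adjusted p = 0.356) and -0.87 without it, and the call was also lost without any 1 of OMVSSDC replicates 1 or 2 or PBSDC replicates 1 or 2 (adjusted p = 0.0543 to 0.0792). In ZJDC the value was -0.08 (adjusted p = 0.737). Rab34, which positions lysosomes, rose by 0.71 in OMVSSDC with an adjusted p of 0.0458 that was lost without any 1 of OMVSSDC replicates 1 or 2, the 3 PBSDC libraries or ZJDC replicate 1 (0.0532 to 0.166), and the value was 0.12 with OMVSSDC replicate 3 alone (0.778). Rab9, Rab7b, Rab29 and Rab39 passed in neither comparison, with log2 values of -0.30 to 0.23.

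Of 10 Rabs of the endoplasmic reticulum and Golgi, 5 were higher and 1 was lower in OMVSSDC (beside 33.4% and 30.2% of all genes), and 4 were higher and 2 lower in ZJDC (27.6% and 27.1%). The 5 include Rab33a, which met the minimum only through the groups where it is high. They also include Rab43, Rab33b and Rab30, whose calls depended on single libraries or settings as given below. The 4 in ZJDC include Rab33a, Rab33b and Rab30, with the same limits. Those that fell were Rab1 genes. Rab1a had 342, 336 and 343 CPM in PBSDC, 259.9, 253 and 303 in OMVSSDC and 307, 291 and 288 in ZJDC. Each of the 6 libraries lay below PBSDC. Rab1a fell by 0.32 in OMVSSDC (SE 0.0749, adjusted p = 0.00363; -0.17 with replicate 3 alone, adjusted p = 0.0145) and by 0.20 in ZJDC (adjusted p = 0.0400), where leaving out any 1 of the 6 PBSDC or ZJDC libraries ended the call (0.0586 to 0.117). Rab1b fell by 0.36 in ZJDC (adjusted p = 0.0334), a call lost without any PBSDC library or without ZJDC replicates 1 or 2 (0.0686 to 0.125). Its -0.21 in OMVSSDC did not pass (adjusted p = 0.176) and was -0.53 with OMVSSDC replicate 3 alone. Rab18, which acts on lipid droplets and the endoplasmic reticulum, rose by 0.31 in each comparison (adjusted p = 0.00153 and 0.00203).

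Rab33a, a Golgi Rab better known from neurons and T cells, had 0.118, 0.480 and 0.292 CPM in PBSDC, from 2, 7 and 4 counts, 2.45, 3.02 and 1.42 CPM in OMVSSDC and 1.75, 1.25 and 0.967 in ZJDC, from 16 to 54 counts. The PBSDC libraries lay below all 6 others. The fitted log2 fold change was 2.97 (SE 0.480) in OMVSSDC and 2.17 (SE 0.517) in ZJDC, and 2.26 with OMVSSDC replicate 3 alone. Its relative Rab33b, which binds the autophagy protein Atg16l1, rose by 0.45 (adjusted p = 0.0206) and 0.43 (adjusted p = 0.0265), calls that were lost without OMVSSDC replicate 2 or PBSDC replicate 3 in the former (0.0930 and 0.0833) and without PBSDC replicates 2 or 3 or ZJDC replicates 1 or 2 in the latter (0.0518 to 0.103). The window before Rab33a is shown because it is the member with the largest fold change; it lies at chrX:48519035-48519284 of GRCm38.p6, plus strand, in RefSeq, and holds none of the 4 motifs.
Rab33a: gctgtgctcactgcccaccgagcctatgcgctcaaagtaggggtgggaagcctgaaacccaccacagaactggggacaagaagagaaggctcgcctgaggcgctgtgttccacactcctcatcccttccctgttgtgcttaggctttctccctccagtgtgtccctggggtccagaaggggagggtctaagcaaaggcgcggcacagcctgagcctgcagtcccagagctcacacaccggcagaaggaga

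Rab43, a Golgi Rab needed for cross-presentation by classical dendritic cells, had 0.531, 1.17 and 1.39 CPM in PBSDC, 4.18, 4.13 and 1.42 in OMVSSDC and 1.47, 2.27 and 1.72 in ZJDC. OMVSSDC replicate 3 lay just above the highest PBSDC library and below the ZJDC libraries, while replicates 1 and 2 were the highest of all. Rab43 rose by 1.69 in OMVSSDC (SE 0.452, adjusted p = 0.00798), but had 0.49 with replicate 3 alone (adjusted p = 0.418), and its 0.83 in ZJDC did not pass (adjusted p = 0.172). Of its transcripts' 50-base words, 74.5% are shared with Gm45140, an overlapping gene counted at 2 or fewer in each library, so its level is uncertain. The same holds for Rab4b, which shares 58.1% with Gm21983 (0 counts in every library). Smaller shares with other genes were found for Rab7 (11.2%), Rab5b (9.8%), Rab11b (9.47%), Rab9 (6.20%) and Rab8b (5.37%). Their FPKM levels and ratios are less certain for that reason. Rab30, another Golgi Rab, rose by 0.66 (adjusted p = 0.0483; 1.05 with OMVSSDC replicate 3 alone) and 0.73 (adjusted p = 0.0352) from a mean of 0.314 FPKM. The OMVSSDC call of Rab30 was lost without any 1 of 7 libraries, all except OMVSSDC replicate 2 and PBSDC replicate 1 (adjusted p = 0.0521 to 0.159), and its ZJDC call without PBSDC replicates 2 or 3 or ZJDC replicates 1 or 3 (0.0699 to 0.119).

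Rab6a, which carries cargo within and back from the Golgi, had 167, 155 and 156 CPM in PBSDC, 111, 121 and 215 in OMVSSDC and 212, 205 and 184 in ZJDC. OMVSSDC replicates 1 and 2 were the lowest of the 9 libraries and replicate 3 the highest. The log2 fold change of -0.10 in OMVSSDC did not pass (adjusted p = 0.691) and was 0.42 with replicate 3 alone. In ZJDC it was 0.33 (adjusted p = 0.197). Rab2a and Rab2b, which act between Golgi and endoplasmic reticulum, passed in neither comparison.

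**Figure D4:**
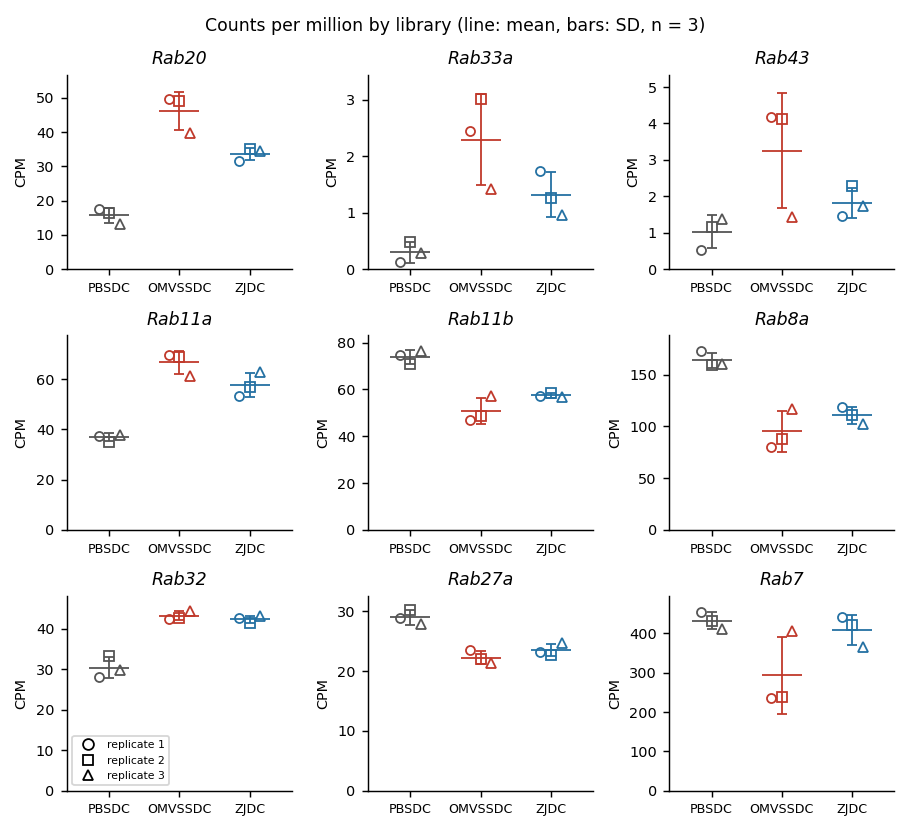
CPM of 9 Rab genes in each library, with the mean as a line and the SD as bars (n = 3 per group); shape marks the replicate. Rab20, Rab33a, Rab11a and Rab32 are higher outside PBSDC and Rab11b, Rab8a and Rab27a lower, and Rab7 is low in OMVSSDC replicates 1 and 2 only.

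Of the Rabs of secretion and surface delivery, 2 of 8 were higher and 3 lower in OMVSSDC, beside 33.4% and 30.2% of all genes. In ZJDC 1 was higher and 2 lower, beside 27.6% and 27.1% of all genes. Rab8a, which drives exocytosis and membrane ruffling, had 172, 159 and 159.9 CPM in PBSDC, 80.4, 87.8 and 117 in OMVSSDC and 119, 111 and 102 in ZJDC. PBSDC stood above all 6 other libraries. Rab8a fell by 0.79 in OMVSSDC (SE 0.125, adjusted p = 0.000335; -0.49 with replicate 3 alone and -0.96 without it) and by 0.57 in ZJDC (SE 0.125, adjusted p = 0.00324). Rab8b had 427, 423 and 418 CPM in PBSDC, 344, 359 and 401 in OMVSSDC and 399.6, 401 and 388 in ZJDC. It too was below PBSDC in every library, by less. Rab8b fell by 0.20 in OMVSSDC (adjusted p = 0.0239), a call lost without any 1 of OMVSSDC replicates 1 or 2 or the 3 PBSDC libraries (0.0521 to 0.0819) and with replicate 3 alone (-0.08, adjusted p = 0.227); its -0.09 in ZJDC did not pass (adjusted p = 0.259). Rab27a, which docks secretory granules and exosome-bearing compartments at the membrane, had 29.0, 30.2 and 27.8 CPM in PBSDC, 23.5, 22.02 and 21.3 in OMVSSDC and 23.3, 22.7 and 24.7 in ZJDC. All 6 libraries lay below PBSDC, and Rab27a fell by 0.38 (SE 0.0818, adjusted p = 0.00225) and 0.30 (SE 0.0814, adjusted p = 0.0101).

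Rab12, a substrate of the kinase LRRK2, had 93.9, 96.8 and 91.1 CPM in PBSDC, 103, 108 and 128 in OMVSSDC and 132, 129 and 126 in ZJDC. Every library outside PBSDC was higher. Rab12 rose by 0.46 in ZJDC (SE 0.0824, adjusted p = 0.000967) and by 0.27 in OMVSSDC (adjusted p = 0.0159; 0.44 with replicate 3 alone), where the call was lost without PBSDC replicate 3 (0.0623). Rab3d, of secretory granules, rose by 0.43 in OMVSSDC (adjusted p = 0.00763; 0.12 and 0.288 with replicate 3 alone), and its 0.28 in ZJDC did not pass (adjusted p = 0.0627). Rab13, Rab19 and the synaptic vesicle gene Rab3a passed in neither comparison.

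Of 4 members with other or less defined roles, 3 were higher and 0 lower in OMVSSDC, beside 33.4% and 30.2% of all genes. In ZJDC 0 passed, beside 54.7% of all genes. Rab40c, which joins a ubiquitin ligase, had 16.9, 17.9 and 17.5 CPM in PBSDC, 34.4, 34.6 and 19.6 in OMVSSDC and 15.5, 17.1 and 21.5 in ZJDC. Only OMVSSDC replicates 1 and 2 stood apart: Rab40c rose by 0.76 (SE 0.205, adjusted p = 0.00817) but had 0.17 with replicate 3 alone (adjusted p = 0.355). Rab28 rose by 0.47 in OMVSSDC (adjusted p = 0.00174; 0.29 with replicate 3 alone). Rab24, linked to autophagy, rose by 0.90 (adjusted p = 0.0159), a call lost without OMVSSDC replicate 1 or PBSDC replicate 2 (0.0685 and 0.0646) and with replicate 3 alone (0.61, adjusted p = 0.168). Rab23, an antagonist of Hedgehog signalling, passed in neither comparison.

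OMVSSDC was set against ZJDC to ask whether these groups differ from each other. None of the 43 members passed with edgeR (0; 1.95% of all genes passed), and the smallest adjusted p was 0.0562, for Rab31. At an unadjusted p under 0.05 there were 13 members, 10 of them higher in OMVSSDC, beside 31.8% of all genes. limma-voom called 0 members and 2.58% of all genes, and DESeq2 3 members (Rab20, Rab31 and Rab40c, all higher in OMVSSDC) and 12.9% of all genes. Groups did not overlap for 5 members, Rab20, Rab22a, Rab24, Rab31 and Rab5b, which is 11.6% of members and 24% of all genes. The OMVSSDC libraries disagreed here: the median absolute log2 distance of the 43 members from the ZJDC mean was 0.282 for replicate 1, 0.290 for replicate 2 and 0.0798 for replicate 3, beside 0.0623 to 0.121 for each ZJDC library against the other 2. Replicates 1, 2 and 3 had 5, 6 and 27 members within the ZJDC range. Without OMVSSDC replicate 3, 26 of 43 members passed, 16 higher and 10 lower, in a fit where 3243 genes were higher and 3296 lower of 11761 tested, so that the members' share was near that of all genes. Among the 26 were Rab43 (1.22), Rab19 (1.13), Rab33a (1.05), Rab40c (0.93) and Rab20 (0.55) as higher and Rab7 (-0.79), Rab6a (-0.79) and Rab10 (-0.48) as lower. In the 7 libraries, with replicate 3 as the lone OMVSSDC library, 0 passed. Both libraries that stand apart are OMVSSDC, so the group and whatever sets them apart cannot be told apart.

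**Figure D5:**
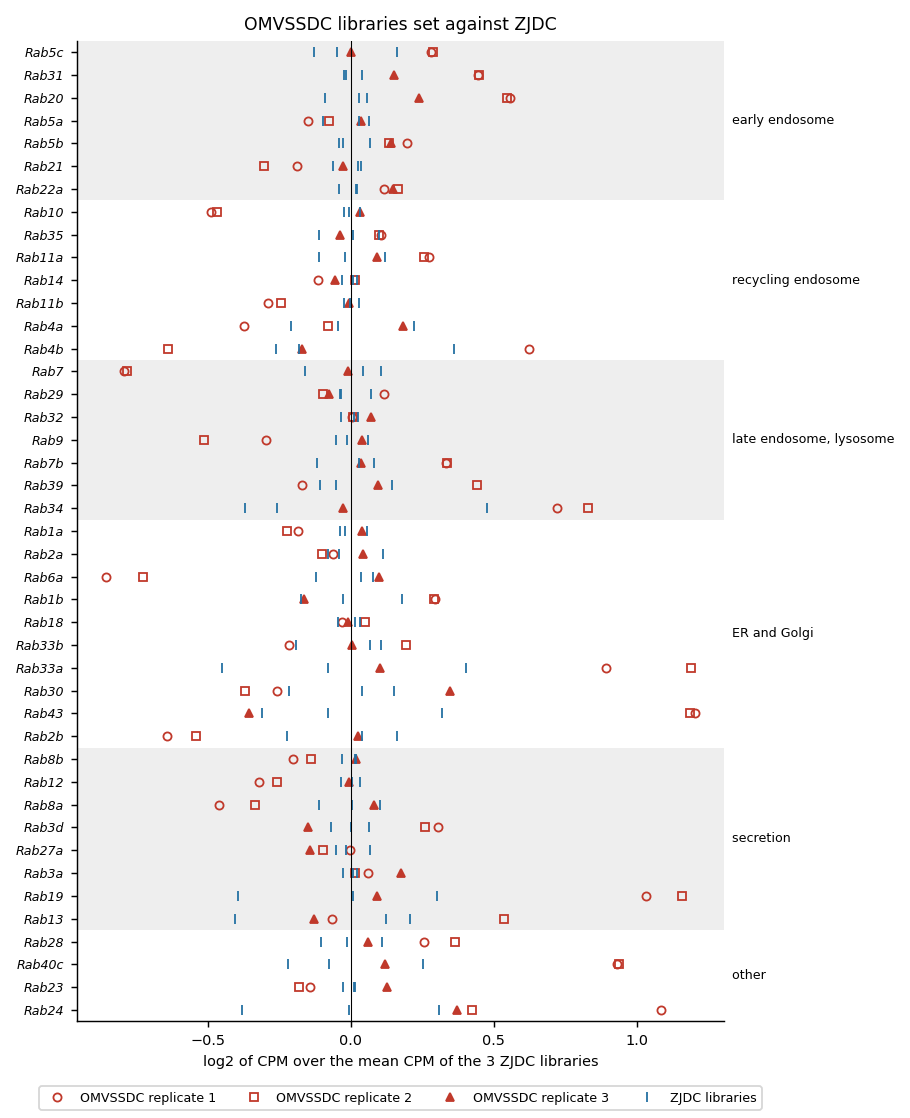
Log2 of each OMVSSDC library's CPM over the mean CPM of the 3 ZJDC libraries, per Rab gene, with the ZJDC libraries as blue ticks. Replicate 3 (filled triangles) lies within the ZJDC range for 27 of 43 genes, and replicates 1 and 2 for 5 and 6.

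Transcripts for the proteins that load, unload and read the Rabs were also followed. From a list of 136 regulators and effectors, 118 were tested; 55 were higher and 20 lower in OMVSSDC (33.4% and 30.2% of all genes), and 54 were higher and 16 lower in ZJDC (27.6% and 27.1%). The median log2 fold change of the list was 0.24 and 0.25. Of 35 exchange factors, which switch Rabs on, 19 were higher and 8 lower in OMVSSDC, and 15 and 7 in ZJDC. Of 33 GTPase-activating proteins, which switch them off, 16 were higher and 4 lower, and 15 and 1 in ZJDC. Of 42 effectors 17 were higher and 7 lower, and 21 and 7 in ZJDC, and of 8 chaperones and lipid attachment factors 3 were higher and 1 lower in each. The exchange factors counted here include Rab3gap1 and Rab3gap2, whose names mark them as GTPase-activating proteins of Rab3. Rab3gap2 is among the 19 higher in OMVSSDC (0.31, adjusted p = 0.00942) and did not pass in ZJDC. Rab3gap1 passed in neither comparison.

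Tbc1d9, whose protein carries the TBC domain of Rab GTPase-activating proteins, had 15.2, 13.8 and 14.0 CPM in PBSDC, 153, 155 and 168 in OMVSSDC and 142, 148 and 138 in ZJDC. It rose by 3.46 (SE 0.0752, adjusted p = 2.19e-09) and 3.31 (SE 0.0749, adjusted p = 4.27e-09), more than any Rab. Rin1, an exchange factor of Rab5, had 3.24, 3.36 and 2.70 CPM in PBSDC, 16.9, 18.0 and 18.1 in OMVSSDC and 16.0, 14.8 and 17.0 in ZJDC. Neither gene's PBSDC libraries came near the others. Rin1 rose by 2.50 (adjusted p = 1.25e-07) and 2.36 (adjusted p = 3.38e-07). Rilpl1, a reader of Rabs phosphorylated by LRRK2, rose by 1.92 (adjusted p = 2.11e-05) and 1.96 (adjusted p = 2.54e-05), and Optn, an autophagy receptor that binds Rab8, by 1.89 in ZJDC (adjusted p = 4.99e-06). Rabac1, which helps to release Rabs from GDI, had 28.6, 29.6 and 33.6 CPM in PBSDC. It had 152, 144 and 59.7 in OMVSSDC and 54.8, 59.5 and 75.9 in ZJDC. OMVSSDC replicate 3 was again among the ZJDC libraries. The rise was 1.96 in OMVSSDC (adjusted p = 0.000253), or 0.96 with replicate 3 alone, and 1.05 in ZJDC (adjusted p = 0.0124).

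In the other direction, Gdi2, the GDI chaperone that extracts spent Rabs, had 521, 532 and 501 CPM in PBSDC, 343, 332 and 350.2 in OMVSSDC and 373, 376 and 385 in ZJDC. The 3 groups did not overlap. Gdi2 fell by 0.60 in OMVSSDC (SE 0.0551, adjusted p = 7.23e-06), and in ZJDC the value was -0.45 (SE 0.0550, adjusted p = 6.97e-05). Rab3il1, an exchange factor of Rab3 and Rab8, had 44.5, 45.8 and 47.8 CPM in PBSDC, 23.0, 21.8 and 18.5 in OMVSSDC and 21.5, 17.5 and 19.4 in ZJDC. It fell by 1.12 (adjusted p = 8.35e-06) and 1.24 (adjusted p = 6.57e-06), and Dennd6b, an exchange factor of Rab14, by 0.79 (adjusted p = 0.000908) and 0.85 (adjusted p = 0.000691). Rufy1, an effector of Rab4 and Rab14, fell by 0.71 in OMVSSDC (adjusted p = 0.000507, and -0.45 with replicate 3 alone). Dennd4b and Dennd2a, exchange factors of Rab10 and Rab9, fell by 0.51 each in ZJDC (adjusted p = 0.000513 and 0.00857). In OMVSSDC their values were -0.39 and -0.46 (adjusted p = 0.00238 and 0.0120). Between OMVSSDC and ZJDC, Evi5 (-0.39, adjusted p = 0.0348) and Inpp5b (-0.28, adjusted p = 0.0463) were lower in OMVSSDC and 0 were higher; neither call held with replicate 3 alone (adjusted p = 0.0722 and 0.0521).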

How the data were processed

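Total RNA of 9 DC2.4 libraries was sequenced. Per the submitters' processing notes, fastp 0.22.0, HISAT2 2.1.0 and HTSeq 0.9.1 were used. The reads were aligned to a genome build not given in the sources used here, and the authors deposited read counts per gene, not normalized, and FPKM, which equal the count divided by gene length and by library total. Groups were taken from the sample titles.

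Tests used edgeR 4.0.16 in R 4.3.3 (filterByExpr with a minimum count of 10 and total of 15, TMM, robust quasi-likelihood test, two-sided, all 9 libraries, group as the only factor). Benjamini-Hochberg adjustment ran over all 11568 genes tested, and a member was called at an adjusted p under 0.05. CPM are TMM-scaled, and the SE is the log2 fold change over the square root of F. The fits were also run on simulated data, with the spread taken from PBSDC and ZJDC and only a small part of the genes changed. That setting lacks the split among the OMVSSDC libraries and the large share of genes called here. It therefore cannot show how the fits behave under these. Python 3.11.15 was used for tables and promoter motifs.

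The members, roles, gene lists and tests were chosen with earlier results of these data known. Library values were given for members called with at least a 2-fold change against PBSDC, the 5 with the highest FPKM, and others of each role chosen after their values were seen. Regulators were named as the 4 largest changes per direction in each comparison with PBSDC, at 5 CPM or more with groups that do not overlap. A regulator given for 1 comparison may therefore have changed in the other too. RefSeq promoters (GRCm38.p6) were matched by symbol. The table's positions are on another build (16.0% of 21159 matched genes overlap GRCm38.p6), so none is printed. Shared 50-base words were counted over GENCODE transcripts. Alternatives were RLE or library size alone, no filter or 50 counts in 3 libraries, DESeq2 1.42.0, limma-voom 3.58.1, a replicate block, only the 2 groups compared, each library left out, the 7 libraries, and removal of a gene length trend.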

Additional observations from a re-analysis of the deposited data

How the results depend on the processing

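Leaving aside Rab33a, whose selection fixed its difference, 13 of 25 members called in OMVSSDC against PBSDC kept their call and direction under all 19 alternatives (Rab11a, Rab11b, Rab18, Rab1a, Rab20, Rab22a, Rab27a, Rab28, Rab31, Rab32, Rab35, Rab5b and Rab8a), and 12 of 19 called in ZJDC against PBSDC did (Rab11a, Rab11b, Rab12, Rab18, Rab20, Rab22a, Rab27a, Rab32, Rab35, Rab5b, Rab5c and Rab8a). Members called lower in OMVSSDC against PBSDC went from 9 to 14 with the length trend removed, and to between 6 and 13 with 1 library left out. That removal also moved the calls over all genes from 3866 higher and 3492 lower to 3330 and 4126, and in ZJDC against PBSDC from 3193 and 3130 to 2799 and 3816. Scaling by library size alone moved the median log2 fold change of all genes in OMVSSDC against PBSDC from 0.05 to 0.18, and calls from 3866 and 3492 to 4672 and 2819; no member's call turned direction. Members called higher in ZJDC went from 11 to 19 with only the 2 groups compared and to 19 in the 7 libraries, and ranged from 8 to 19 with 1 library left out (19 without OMVSSDC replicate 3). Members called lower in ZJDC went from 9 to 5 with library size alone, and ranged from 5 to 10 with 1 library left out (5 without PBSDC replicate 1 or 3). In OMVSSDC against ZJDC, members called higher went from 0 to 3 with DESeq2 and to 1 with the length trend removed, and ranged from 0 to 16 with 1 library left out; those called lower ranged from 0 to 10. Both upper ends came without OMVSSDC replicate 3. The sign turned for Rab10 in OMVSSDC against PBSDC (0.01; -0.18 to 0.0934 with 1 library left out, the lowest without OMVSSDC replicate 3) and for Rab6a (-0.10, and 0.42 in the 7 libraries). The cause was not tested.

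Whether the replicate numbers pair the libraries could not be decided. Deviations from the group means correlated at -0.388 to 0.0887 between libraries with the same number (9 pairs). Between different numbers they correlated at -0.199 to 0.327 (18 pairs). With 3 libraries a group such deviations sum to 0 within each group, so these correlations cannot settle the question. With the replicate number as a block, 16 members were higher and 8 lower in OMVSSDC against PBSDC, 9 and 5 in ZJDC against PBSDC, and 0 and 0 in OMVSSDC against ZJDC.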
